A study of Mus musculus with 4 samples.

Results

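Distal accessible regions of the mouse posterior forelimb bud that were called in exactly 1 wild-type (WT) library and exactly 1 Shh-/- library numbered 2189. They made up 8.05% of the 27184 distal regions in the 4 peak lists, and the lists merged into 44692 regions in all. Peaks sharing 1 bp or more were joined into a region, and a region was distal if it stayed clear of the promoter window of every GENCODE M21 basic transcription start site (TSS), from 2 kb before the TSS to 1 kb past it. The 2189 regions were selected on the peak calls themselves, so their calls, ranks and scores are given as a description with no test, and percentages near 8.05% are the background of all distal regions of the series. They are called single-pair regions here, since each was called in a single pair of libraries, 1 of each genotype. Of the 5221 regions with this call pattern, 58.1% overlapped a promoter window and were left out. Over all merged regions this share was smaller, since 27184 of the 44692 were distal.

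Open chromatin was mapped by ATAC-seq in 2 WT and 2 Shh-/- libraries, using the Tn5 transposase to insert adapters where DNA is accessible. All embryos were Swiss Webster mice at E10.5 (35 somites), each library held the posterior forelimb buds of a single embryo, and 5000 cells entered each reaction, followed by 18 PCR cycles. The Shh-/- embryos were homozygous for a null allele of Shh, so both of their libraries lacked SHH ligand in every cell, not in the limb alone. The peak lists were 39080 (replicate 1) and 11973 (replicate 2) long for WT and 5589 (replicate 1) and 18459 (replicate 2) long for Shh-/-, and the lists give no read number per library. As a check of the tissue, promoter windows of 28 limb mesenchyme transcription factor genes held a peak for 26 and 16 genes in the WT lists and for 10 and 25 in the Shh-/- lists, in replicate order. For 10 liver and gut marker genes these counts were 3 and 1 and then 0 and 2. In the same order they were 8, 2, 0 and 4 of 15 ectoderm and ridge genes and 9, 3, 1 and 8 of 17 endothelial and blood genes. Muscle progenitor markers had 4, 2, 0 and 4 of 8, and neural and neural crest markers 5, 1, 0 and 3 of 10. Among the limb lists, HoxA and HoxD genes had 9, 3, 1 and 7 of 10.

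Enhancers are stretches of DNA, often far from the gene they act on, that open when transcription factors bind them. Sonic hedgehog (SHH) is made by the zone of polarizing activity at the posterior edge of the limb bud, where it sets the number and identity of digits and supports growth. Its signal passes through the receptor PTCH1 and the transducer SMO to the GLI transcription factors, which act as repressors when the ligand is missing. The limb bud mesenchyme also depends on FGF signals from the apical ectodermal ridge, on BMP, WNT and retinoic acid signaling, and on transcription factors of the T-box, homeodomain and basic helix-loop-helix families. A distal region open with and without the ligand is a candidate for an enhancer that does not need SHH, but an accessible region is not by itself an enhancer, and enhancer activity was not measured in these files.

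The sequences of 10 single-pair regions are shown because each is the best ranked region whose nearest gene is in one of the limb gene lists, at any distance, or lies in Lmbr1. Each is 200 bp of the plus strand of GRCm38 (mm10), read from the RefSeq assembly and centred on the summit of the better ranked of the region's peaks. Capitals mark matches to the motifs listed further on, on either strand, and a sequence with no capitals held no match. The Lmbr1 window is chr5:29314923-29315122 in an intron of Lmbr1, a gene known as the host of the distant limb enhancer of Shh. The Gli3 window is chr13:15343228-15343427, intergenic and upstream of Gli3, the main GLI repressor of the limb. The Cdk6 window is chr5:3405303-3405502 in an intron of Cdk6, a cell cycle kinase gene, and holds a MEIS/TGIF core. The Tbx18 window is chr9:87824913-87825112, intergenic, with a HAND/TWIST E-box. The Meis1 window is chr11:18712668-18712867, intergenic and 306.0 kb downstream of the TSS of Meis1, a homeobox gene of the proximal limb, and it holds a posterior HOX match and a HAND/TWIST E-box. The Sox6 window is chr7:115645695-115645894 in an intron of Sox6, a chondrogenic factor, with a MEIS/TGIF core and a palindromic E-box. The Spry2 window is chr14:105732395-105732594, intergenic, with a TEAD match, and Spry2 encodes a feedback inhibitor of FGF signaling. The Fzd1 window is chr5:4685802-4686001, intergenic, and Fzd1 encodes a WNT receptor. The Id3 window is chr4:136147911-136148110, intergenic, with 2 GC boxes, and Id3 is a target of BMP signaling. The Rarb window is chr14:16523005-16523204 in an intron of Rarb, a retinoic acid receptor gene, with a MEIS/TGIF core.
Lmbr1: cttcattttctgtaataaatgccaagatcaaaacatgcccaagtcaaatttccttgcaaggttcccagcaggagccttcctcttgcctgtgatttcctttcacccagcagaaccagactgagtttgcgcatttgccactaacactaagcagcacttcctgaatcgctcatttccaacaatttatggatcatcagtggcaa
Gli3: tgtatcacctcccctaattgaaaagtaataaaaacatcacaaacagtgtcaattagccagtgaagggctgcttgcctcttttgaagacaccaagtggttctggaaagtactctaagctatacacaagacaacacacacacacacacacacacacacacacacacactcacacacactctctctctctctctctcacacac
Cdk6: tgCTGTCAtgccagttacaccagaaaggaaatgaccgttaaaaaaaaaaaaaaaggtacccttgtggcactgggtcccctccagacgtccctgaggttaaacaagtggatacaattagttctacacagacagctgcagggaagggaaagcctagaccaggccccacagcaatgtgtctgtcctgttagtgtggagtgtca
Tbx18: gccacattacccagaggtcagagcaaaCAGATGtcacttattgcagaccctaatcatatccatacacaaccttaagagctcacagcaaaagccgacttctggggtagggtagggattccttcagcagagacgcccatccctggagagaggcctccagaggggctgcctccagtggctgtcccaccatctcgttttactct
Meis1: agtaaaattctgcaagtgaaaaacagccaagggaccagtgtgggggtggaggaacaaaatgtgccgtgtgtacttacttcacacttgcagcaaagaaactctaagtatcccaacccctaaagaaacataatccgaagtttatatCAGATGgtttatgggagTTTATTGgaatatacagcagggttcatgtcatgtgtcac
Sox6: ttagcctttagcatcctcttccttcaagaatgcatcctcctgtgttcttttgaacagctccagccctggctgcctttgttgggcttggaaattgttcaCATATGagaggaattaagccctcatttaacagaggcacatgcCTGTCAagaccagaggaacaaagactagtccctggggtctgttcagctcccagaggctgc
Spry2: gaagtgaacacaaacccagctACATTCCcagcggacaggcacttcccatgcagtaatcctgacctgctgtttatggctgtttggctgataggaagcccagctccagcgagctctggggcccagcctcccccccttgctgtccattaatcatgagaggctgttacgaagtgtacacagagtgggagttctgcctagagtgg
Fzd1: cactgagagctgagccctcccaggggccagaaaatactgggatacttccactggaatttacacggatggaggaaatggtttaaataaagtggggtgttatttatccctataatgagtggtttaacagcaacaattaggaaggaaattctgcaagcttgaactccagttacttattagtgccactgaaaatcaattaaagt
Id3: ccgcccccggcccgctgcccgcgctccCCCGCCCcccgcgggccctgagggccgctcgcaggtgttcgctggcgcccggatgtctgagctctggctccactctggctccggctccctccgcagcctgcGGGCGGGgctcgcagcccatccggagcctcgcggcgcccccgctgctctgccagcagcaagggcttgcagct
Rarb: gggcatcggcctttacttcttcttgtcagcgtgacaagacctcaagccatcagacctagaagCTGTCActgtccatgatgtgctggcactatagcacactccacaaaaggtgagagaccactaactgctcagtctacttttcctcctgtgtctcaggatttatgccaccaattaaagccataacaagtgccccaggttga

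The windows differ widely in composition. The Id3 window had a GC content of 78.5% and the Fzd1 window 40.5%. The Gli3 window was soft-masked as repeat over 50% of its length, with a CA-rich run in its right part, and the Cdk6 window over 15%, while the windows of Tbx18, Meis1, Sox6, Spry2, Fzd1, Id3 and Rarb held no masked base.

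A single pair of libraries supplied most of the set. WT replicate 1 and Shh-/- replicate 2, the longest lists of their genotypes, shared 1991 of the 2189 regions (91.0%, 95% Wilson interval 89.7 to 92.1). WT replicate 1 and Shh-/- replicate 1 shared 147 (6.72%), WT replicate 2 and Shh-/- replicate 2 shared 47 (2.15%), and WT replicate 2 and Shh-/- replicate 1 shared 4. By comparison, 469 distal regions were called in all 4 libraries, 484 in both WT libraries alone, 165 in both Shh-/- libraries alone, and 18114 in WT replicate 1 alone. At equal list size, with the 5589 highest scoring peaks of each list, the most frequent pair was WT replicate 1 and Shh-/- replicate 1, with 51.6% of the regions of this pattern.

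**Figure D1:**
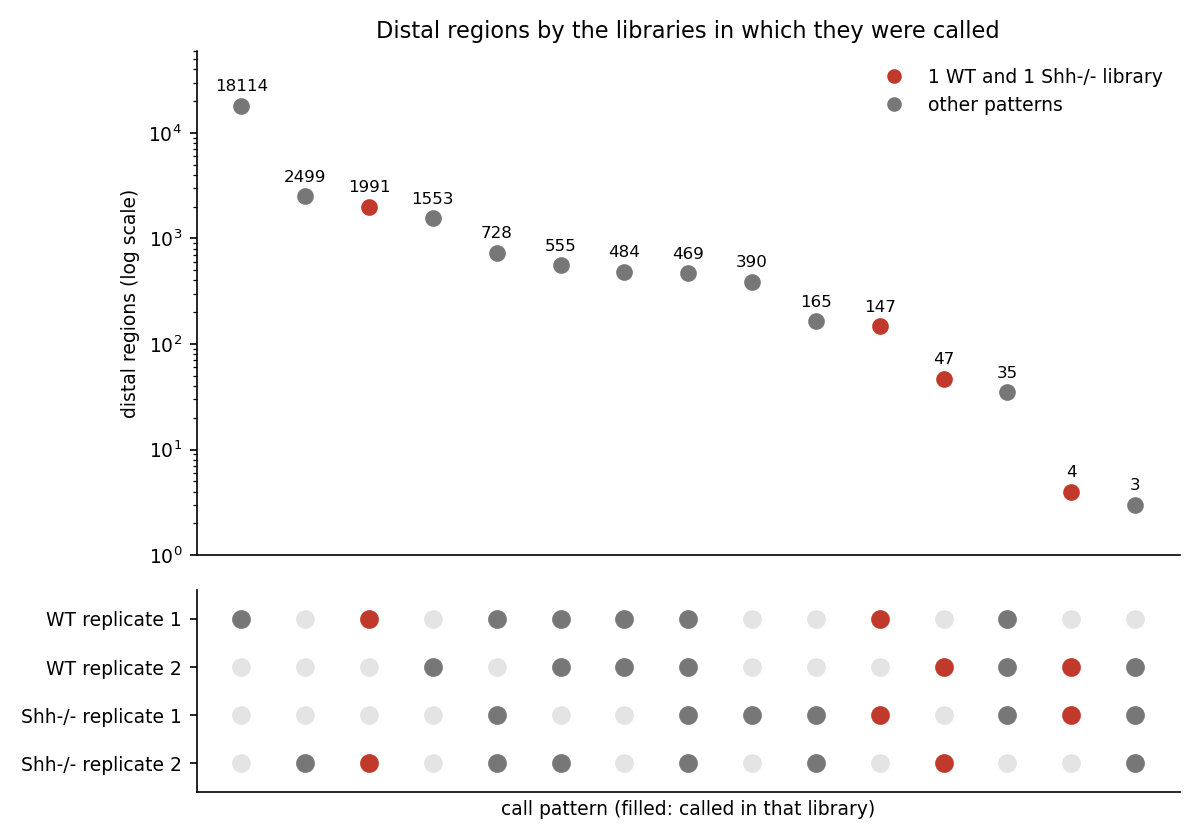
Number of distal regions (log axis) for each combination of the 4 libraries, with filled circles below for the libraries that called them. The 4 single-pair patterns (red) held 1991, 147, 47 and 4 regions, and the 18114 regions of WT replicate 1 alone were the most frequent pattern.

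The peaks of single-pair regions ranked higher than the distal peaks as a whole in WT replicate 1 and about like them in Shh-/- replicate 2. Their median rank was 39.1% down the list of WT replicate 1, against 63.9% for all its distal peaks, and 69.9% down that of Shh-/- replicate 2, against 70.4%. Their median scores were 53 and 46. In the shorter lists, single-pair peaks had a median rank of 70.3% in WT replicate 2 and 82.8% in Shh-/- replicate 1, against 75.4% and 64.3% for all distal peaks. In WT replicate 1 the share of distal regions that were single-pair was 3.77% in the highest scoring decile of the list, 31.0% in the third decile and 3.17% in the last. In Shh-/- replicate 2 it was 0 of 117 in the highest decile, 43.1% in the seventh and 23.5% in the last. The highest deciles were mostly regions called in all 4 libraries, at 66.1% in WT replicate 1 and 75.2% in Shh-/- replicate 2.

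**Figure D2:**
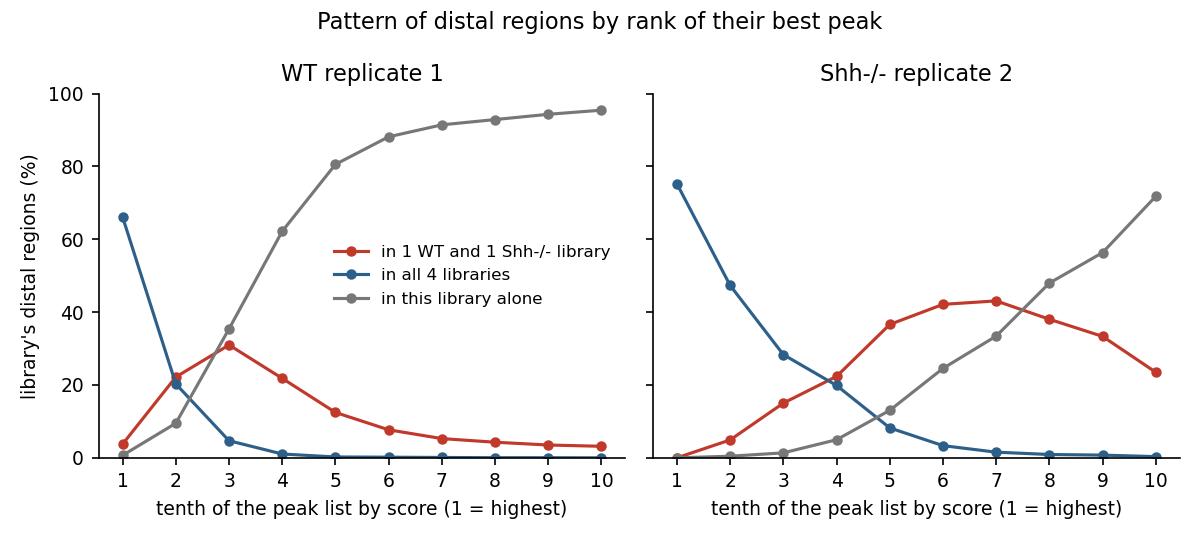
Share of a library's distal regions (percent) by the decile of its peak list, ordered by score, in which their best peak fell, for WT replicate 1 (left) and Shh-/- replicate 2 (right). Single-pair regions (red) peaked at 31.0% in the third decile of WT replicate 1 and at 43.1% in the seventh decile of Shh-/- replicate 2, between the regions called in all 4 libraries (blue) and those called in that library alone (grey).

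Peaks of a region were joined by overlap, which limits how far apart their summits can lie. The summits lay within 100 bp of each other in 1153 of the 2189 regions (52.7%, 50.6 to 54.8), with a median offset of 94 bp. The smallest overlap that joined a pair was 1 bp. This share was 41.9% (37.6 to 46.4) in regions called in both WT libraries alone and 61.2% (53.6 to 68.3) in both Shh-/- libraries alone. Within 1 pair of libraries, WT replicate 1 and Shh-/- replicate 2, the share was 52.7% in single-pair regions and 65.2% (60.8 to 69.4) in regions called in all 4 libraries. Ranks in these libraries had a Spearman correlation of 0.34 across 1969 single-pair regions with 1 peak in each, and of 0.67 across 445 regions called in all 4, as a description across regions that share both libraries. By the rule no peak of the libraries without a call overlapped a region, so few summits of theirs close by follow in part from the selection. No like share was taken over other distal regions. Of the 1991 regions of the most frequent pair, 1.36% had a summit of WT replicate 2 within 1 kb and 0.452% one of Shh-/- replicate 1. A missing call does not show closed chromatin.

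Which regions fell in the set changed with the peaks and libraries that were used. With every list limited to its 5589 highest scoring peaks, 157 distal regions had the single-pair pattern, or 6.61% of 2376, and 15 of them overlapped one of the 2189. With peaks of a score of at least 50 in all lists, 1129 regions had it, and 667 of these overlapped one of the 2189. Without Shh-/- replicate 2, 877 distal regions were called in 1 WT library and in Shh-/- replicate 1. The overlap of 151 of these with a single-pair region was fixed by the rule. It equals the number of single-pair regions called in Shh-/- replicate 1.

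Introns were the most frequent place of single-pair regions, followed by intergenic DNA. Introns held 966 (44.1%, 42.1 to 46.2), intergenic DNA 895 (40.9%, 38.8 to 43.0) and exons outside promoter windows 328 (15.0%, 13.6 to 16.5). Over all distal regions these shares were 47.1%, 31.8% and 21.1%. Regions called in both WT libraries alone were in exons more often (33.3%, 29.2 to 37.6), and regions called in both Shh-/- libraries alone less often (1.21%, 0.333 to 4.31), while regions called in all 4 libraries had 12.8%. These intervals cover counting error only, and neighbouring regions are not independent.

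The median distance from the middle of a single-pair region to the nearest protein-coding TSS was 31.3 kb (95% interval 29.0 to 33.7). It was 25.5 kb (20.4 to 31.8) for regions called in all 4 libraries, 13.5 kb (11.2 to 16.2) for both WT libraries alone, 143 kb (115 to 169) for both Shh-/- libraries alone and 21.3 kb over all distal regions. Regions called in Shh-/- replicate 2 alone came closest to the single-pair regions, with a median of 32.2 kb (29.8 to 34.6) and 13.8% in exons, and those called in WT replicate 1 alone had a median of 18.7 kb. More than 100 kb separated 21.7% of single-pair regions from the nearest protein-coding TSS, and 25% lay within 10 kb. Their median width was 557 bp, against 323 bp over all distal regions and 979 bp for regions called in all 4.

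**Figure D3:**
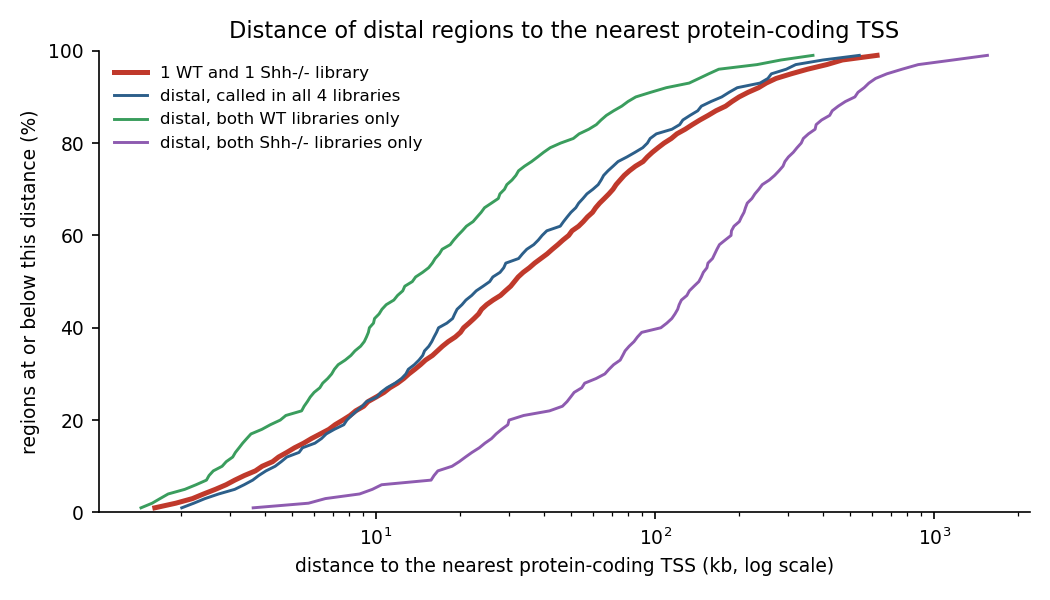
Cumulative share of distal regions (percent) by distance to the nearest protein-coding TSS (kb, log axis), from the 1st to the 99th percentile, for single-pair regions (red), regions called in all 4 libraries (blue), in both WT libraries alone (green) and in both Shh-/- libraries alone (purple). Single-pair regions, with a median of 31.3 kb, lay to the right of the regions called in all 4 libraries (25.5 kb), and the purple curve lay farthest from genes (143 kb).

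The threshold of the promoter window decided some regions. The closest region inside the set lay 2 bp outside a promoter window (nearest gene Mindy3), followed by regions near Kpna6 at 16 bp and Zfp423 at 25 bp. The closest regions left out reached 8 bp into a window at Sema5b, 19 bp at Rasip1 and 31 bp at Grem1. Within 1 kb of a promoter window lay 198 of the 2189 regions. Grem1 encodes a BMP antagonist that links SHH to the ridge, and its region, chr2:113757354-113757676, was called in WT replicate 1 and Shh-/- replicate 2.

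GC content in the 200 bp around the summit had a median of 53.5%, against 53.0% over all distal regions, 54.5% in regions called in all 4 libraries and 41.0% in both Shh-/- libraries alone. By library pair it was 53.5% for WT replicate 1 with Shh-/- replicate 2 and 50% for WT replicate 1 with Shh-/- replicate 1. CpG-rich windows, with a GC content of at least 50% and at least 0.6 of the CpG dinucleotides that the base composition predicts, made up 333 of the single-pair regions (15.2%, 13.8 to 16.8). The share was 6.39% (6.11 to 6.69) over all distal regions and 26.2% (22.4 to 30.4) in regions called in all 4. Of the 333 CpG-rich regions, 325 came from WT replicate 1 and Shh-/- replicate 2 and 1 from WT replicate 1 and Shh-/- replicate 1. The CpG-rich regions lay a median of 12.8 kb (9.75 to 15.9) from a protein-coding TSS and the 1856 others 36.4 kb (32.9 to 40.5).

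Motifs were searched on both strands of the same 200 bp in single-pair regions and in all distal regions, and a match is a description of letters, not of a bound factor. The homeodomain core TAATTA, read by many limb homeobox factors, was present in 228 single-pair regions (10.4%, 9.20 to 11.8), against 5.67% of all distal regions and 11.1% (8.56 to 14.3) of those called in all 4 libraries. The GC box GGGCGGG, bound by SP and KLF factors, was present in 224 (10.2%, 9.03 to 11.6), against 4.36% and 14.3%. The posterior HOX motif CAATAAA was found in 88 (4.02%, 3.27 to 4.93), against 2.71% and 2.56%. The TCF/LEF motif CTTTGAT, read by the effectors of WNT signaling, was found in 100 (4.57%, 3.77 to 5.53), against 3.06% and 2.35%. The 165 regions called in both Shh-/- libraries alone held the homeodomain core in 20.6% and the GC box in 0%. They held the posterior HOX motif in 7.88% (4.66 to 13.0) and the TCF/LEF motif in 6.67% (3.76 to 11.5).

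Over all GC contents together, other motifs differed less from the distal background as a ratio of shares, though not always in percentage points. The HAND/TWIST E-box CAGATG was found in 22.0% (20.3 to 23.8) against 20.3%, and the MEIS/TGIF core TGACAG in 16.0% (14.5 to 17.6) against 17.7%. Regions called in all 4 libraries held the E-box in 14.9% (12.0 to 18.4) and the MEIS/TGIF core in 15.4%. The GLI motif TGGGTGGTC, allowed 1 mismatch, was found in 145 single-pair regions (6.62%, 5.66 to 7.74) against 6.01% of all distal regions and 5.33% of those called in all 4. The shares of single-pair and all distal regions were 4.25% and 3.44% for the TEAD motif ACATTCC, 4.93% and 5.05% for the AP-1 motif TGANTCA, and 6.03% and 6.17% for the GATA motif AGATAA. They were 2.65% and 3.69% for the palindromic E-box CATATG, 2.01% and 2.33% for the SOX motif ACAATGG, and 1.78% and 1.31% for the CTCF core CNAGGGGGC. The T-box motif AGGTGTGA (0.914% and 1.23%), the PBX-HOX motif TGATTGAT (0.685% and 0.60%) and the ETS motif CCGGAAGT (0.411% and 0.353%) were rare. PBX-HOX and homeodomain motifs can overlap each other in a sequence, and each was counted on its own.

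**Figure D4:**
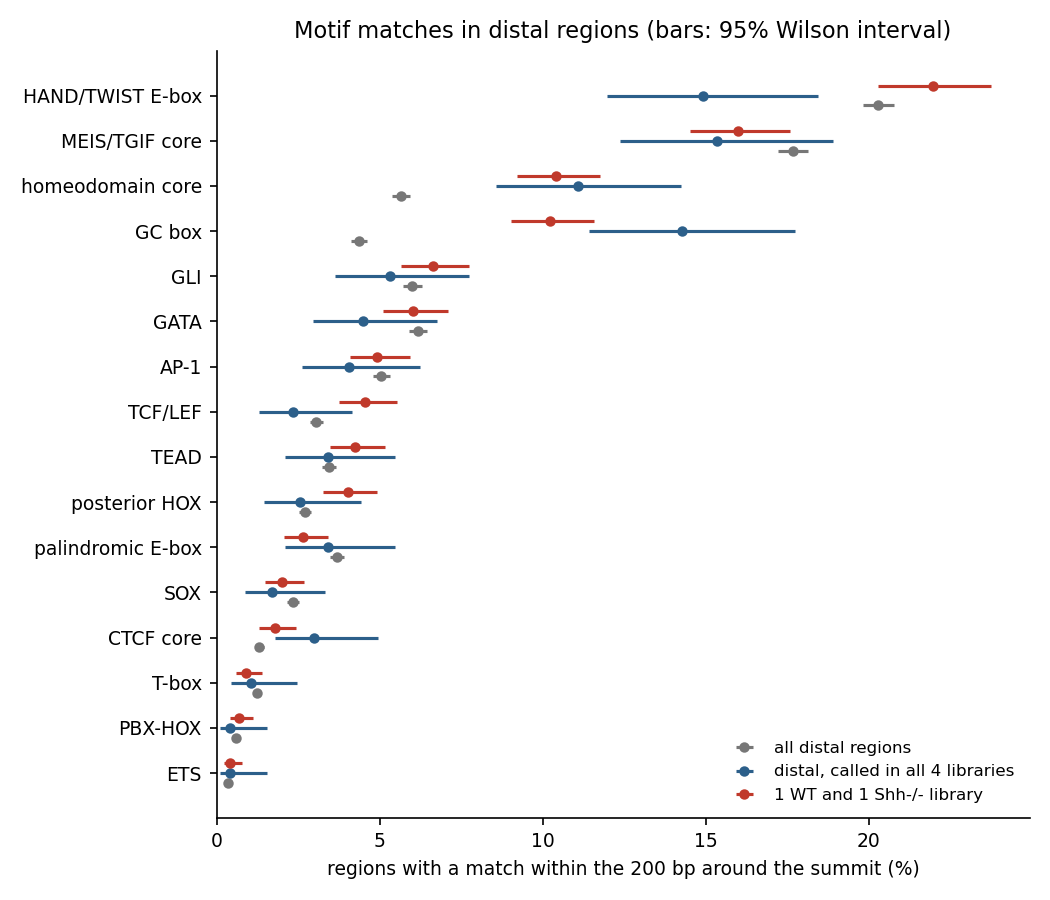
Share of regions (percent) with at least 1 match to each of 16 motifs in the 200 bp around the summit, with 95% Wilson intervals, for single-pair regions (red), regions called in all 4 libraries (blue) and all distal regions (grey). The homeodomain core and the GC box were more frequent in single-pair regions (10.4% and 10.2%) than over all distal regions (5.67% and 4.36%), and the GLI motif was at 6.62% against 6.01%.

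Since base composition moves with motif counts, shares were set side by side at like GC content. At a GC content of 45 to 55% the homeodomain core was present in 12.2% of 892 single-pair regions, in 5.05% of the 12625 other distal regions and in 11.4% (9.51 to 13.7) of the 902 others that were called in at least 2 libraries. At 55 to 65% these shares were 4.70%, 1.45% and 4.47%. Below 45% the core was present in 23.2% of single-pair regions, 18.3% of the other distal regions and 28.2% of the others called in at least 2 libraries, and at 65% and above in 0.922%, 0.962% and 0.932%. The distal background is mostly made of regions called in WT replicate 1 alone, of which 4.03% held the core. Regions called in Shh-/- replicate 2 alone held it in 9.84% (8.74 to 11.1), close to the 10.4% of single-pair regions, and regions called in both WT libraries alone in 4.55%. At 45 to 55% the HAND/TWIST E-box was present in 26.6% (23.8 to 29.6) of single-pair regions. The other distal regions had 20.9%, and the others called in at least 2 libraries 20.2% (17.7 to 22.9). Below 45% these shares were 26.9%, 18.2% and 17.6%. At 55 to 65% they were 18.1%, 20.7% and 19.3%, and at 65% and above 7.83%, 9.74% and 9.94%. Below 45% the posterior HOX motif was in 9.52% of single-pair regions, against 11.1% of the others called in at least 2 libraries. At 45 to 55%, 55 to 65% and above it was in 5.04%, 1.11% and 0.461%, against 3.44%, 2.16% and 1.24%. In these steps the GC box was in 3.25%, 14.5% and 41.5%, against 2.99%, 12.0% and 40.7%. The GC box holds a CpG and TAATTA no G or C, so the definition of CpG-rich windows favours the former. CpG-rich single-pair regions held a GC box in 30.3% and a homeodomain core in 4.50%, and the others in 6.63% and 11.5%.

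Regions were next set against genes. The 2189 regions had 1697 different nearest protein-coding genes, 7.74% of 21911, and 1350 of these genes had 1 region. Over 10 limb gene lists with 141 genes, 65 genes (46.1%) had a single-pair region within 100 kb of a TSS, against 19.9% of all protein-coding genes. Genes differ in how many distal regions surround them, so the share of those regions is given as well. Of the 931 distal regions within 100 kb of a limb gene, 104 (11.2%, 9.30 to 13.4) were single-pair, against 1713 of 23108 (7.41%, 7.08 to 7.76) within 100 kb of any protein-coding gene. At equal list size 7 of 105 (6.67%) were, against 6.61% of all distal regions. These lists were chosen with earlier results of these data known, and nothing particular to them is drawn from the counts. A region within 100 kb of a listed gene can have another gene as its nearest. Id3, Tbx2, Sox8 and Actb were each the nearest gene of 1 single-pair region, and Cdon, Cdh1, Crabp2, Msc, Rpl13a and Sdha of 0. All 5 regions near Lmx1b had it as their nearest gene.

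**Figure D5:**
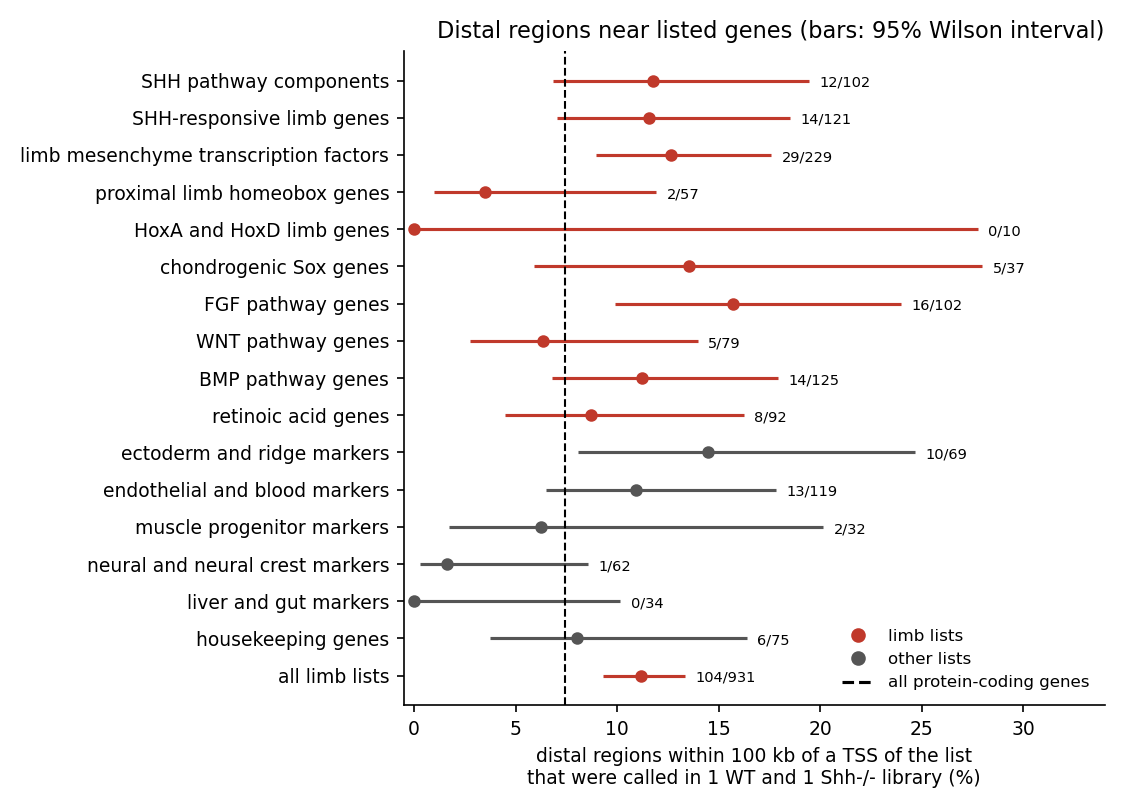
Share of the distal regions within 100 kb of a TSS of each gene list that were single-pair (percent, with 95% Wilson intervals and the counts beside them), for limb lists (red) and other lists (grey). The dashed line is the 7.41% of all protein-coding genes, and lies below the intervals of the limb mesenchyme transcription factors, the FGF pathway genes, the ectoderm and ridge markers and all limb lists together.

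Among the SHH pathway components, 12 of 102 distal regions (11.8%, 6.86 to 19.4) were single-pair, near 10 of 15 genes. Shh itself, the ligand gene, had 1 of 4. This region, chr5:28460130-28461008, lay in an intron 6.69 kb from the TSS and was called at rank 15738 of WT replicate 1 (score 53) and rank 12839 of Shh-/- replicate 2 (score 46), with summits 370 bp apart. Neither WT replicate 2 nor Shh-/- replicate 1 had a summit within 100 kb of it (143 and 390 kb away). The intronic Lmbr1 region, chr5:29314983-29315388, was weak in both libraries, at rank 34935 in WT replicate 1 (score 20) and rank 15773 in Shh-/- replicate 2 (score 31). Its summits lay 86 bp apart, and no searched motif matched its window printed above.

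Ptch1, which encodes the SHH receptor and is itself induced by the signal, had 1 of 6 distal regions in the set, in an intron at chr13:63528240-63528718. It was called at rank 27239 in WT replicate 1 (score 32) and rank 11150 in Shh-/- replicate 2 (score 62), with summits 109 bp apart. Its window held a MEIS/TGIF core, a HAND/TWIST E-box and a GC box. Of the co-receptor genes, Gas1 had 2 of 10, Boc 2 of 8 and Cdon 1 of 8. Gli2, which encodes the main GLI activator, had 1 of 12, in an intron at chr1:118982461-118983609 with scores of 76 and 96 in WT replicate 1 and Shh-/- replicate 2. Gli3 was the nearest gene of 2 single-pair regions, the intergenic one printed above (scores 84 and 125, summits 502 bp apart) and an intronic one at chr13:15549396-15549694 (scores 53 and 54, summits 60 bp apart). Gli1 and Hhip, direct targets of the pathway, had 0 of 8 and 0 of 1.

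Among genes that respond to SHH in the limb, 14 of 121 distal regions (11.6%, 7.02 to 18.5) were single-pair. Hand2, which encodes a basic helix-loop-helix factor that acts upstream of Shh and is maintained by it, had 2 of 4. The stronger one, chr8:57327709-57329324, lay 7.53 kb downstream of the TSS at rank 11239 in WT replicate 1 (score 84) and rank 11899 in Shh-/- replicate 2 (score 54). Its summits lay 414 bp apart, so its window, centred on the summit of WT replicate 1, did not reach that of Shh-/- replicate 2. The window held a HAND/TWIST E-box and matches to the TEAD, TCF/LEF and GATA motifs. The weaker one, chr8:57353572-57354140, overlapped an exon of the non-coding gene 5033428I22Rik and had scores of 53 and 31. Fmn1, whose introns are known to hold limb enhancers of its neighbour Grem1, had 1 of 3, chr2:113497861-113498537, at rank 8998 in WT replicate 1 (score 111) and rank 11509 in Shh-/- replicate 2 (score 54), with a TCF/LEF match. Grem1 had no distal region within 100 kb. The T-box gene Tbx2 had 3 of 21 and the cell cycle gene Ccnd1 had 3 of 36.

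The Cdk6 region, printed above, was the best ranked near a gene of this list. Cdk6 acts with cyclin D in the G1 phase of the cell cycle. The region, chr5:3405166-3405753, was called at rank 7686 of WT replicate 1 (score 139) and rank 3879 of Shh-/- replicate 2 (score 208). Its summits lay 55 bp apart, and the nearest summits of WT replicate 2 and Shh-/- replicate 1 were 61.0 and 5.32 kb away.

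Limb mesenchyme transcription factor genes had 29 of 229 (12.7%, 8.96 to 17.6), all from the most frequent pair and near 17 of 28 genes. Lmx1b, which sets the dorsal limb pattern, had 5 of 46 and Prrx2, a mesenchymal homeobox gene, 3 of 31. Shox2, needed for growth of the proximal limb skeleton, had 3 of 7. The Tbx18 region printed above, chr9:87824796-87825145, was the best ranked in the list, at scores of 102 and 134 in WT replicate 1 and Shh-/- replicate 2, and the only distal region within 100 kb of that gene in any library. The proximal homeobox genes had 2 of 57 (3.51%, 0.968 to 11.9), 1 each near Meis1 and Pknox2. The HoxA and HoxD limb genes had 0 of 10, which allows a share of up to 27.8% by the Wilson interval. The chondrogenic Sox genes had 5 of 37, with 3 near Sox8, 1 near Sox5 and 1 near Sox6. The Sox6 region printed above lay 179 kb from the TSS, in an intron, and is not among these 5.

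The best ranked region with a proximal homeobox gene as its nearest gene was called in another pair. This Meis1 region, printed above, lay 306.0 kb from the TSS and is not among the 2 within 100 kb. It spanned chr11:18712345-18713050 and was at rank 10566 of WT replicate 1 (score 93) and rank 1844 of Shh-/- replicate 1 (score 109). Its summits lay 84 bp apart. The nearest summit of Shh-/- replicate 2, the longer Shh-/- list, was 1.72 kb away, and that of WT replicate 2 was 46.1 kb away.

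FGF pathway genes had 16 of 102 (15.7%, 9.89 to 24.0). Fgf4, a ligand of the apical ectodermal ridge, had 5 of 34, of which 1 also lay within 100 kb of Ccnd1. Fgf17, another ridge ligand, had 2 of 12. Each of these regions had another gene as its nearest, so 0 were nearest to Fgf4 and 0 to Fgf17. Fgfr3, which encodes an FGF receptor of cartilage, had 2 of 11. The Spry2 region printed above, 164 kb from the TSS and so outside the 100 kb window, had scores of 120 and 96 in WT replicate 1 and Shh-/- replicate 2. BMP pathway genes had 14 of 125 (11.2%, 6.79 to 17.9). Id3 had 4 of 12, of which 1 had Id3 as its nearest gene. This region, chr4:136147252-136148523, lay 4.39 kb downstream of the TSS with scores of 111 and 208. Bmp7, a ligand, had 3 of 32, and Smad7, an intracellular inhibitor of BMP and TGF-beta signaling, had 3 of 16.

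WNT pathway genes had 5 of 79 (6.33%, 2.73 to 14), including 1 of 3 near Fzd1, 1 of 7 near Tcf7l2, an effector, and 1 of 11 near Axin2, a feedback inhibitor. Retinoic acid genes had 8 of 92 (8.70%, 4.47 to 16.2), with Rxra and Rara, both retinoid receptor genes, at 4 of 30 and 2 of 15, and Crabp2, a binding protein gene, at 1 of 16. Of the retinoic acid regions, 4 of the 8 came from the most frequent pair, against 98 of 104 over all limb lists.

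Marker lists of other cell types were not free of single-pair regions. Ectoderm and ridge markers had 10 of 69 (14.5%, 8.07 to 24.7), with 4 of 19 near the keratin gene Krt18, none of them nearest to it, 2 of 7 near Sp8, a ridge transcription factor gene, and 1 of 2 near Cdh1, which encodes E-cadherin. Endothelial and blood markers had 13 of 119 (10.9%, 6.50 to 17.8), near 8 of 17 genes. The transcription factor genes Erg, Fli1, Lyl1, Runx1 and Tal1 tied with 2 each, out of 5, 5, 34, 7 and 6. Muscle progenitor markers had 2 of 32, 1 each near Msc and Myod1, and neural and neural crest markers 1 of 62, near Elavl3. Liver and gut markers had 0 of 34 (interval up to 10.2%), and housekeeping genes had 6 of 75 (8%, 3.72 to 16.4), with 4 near Actb and 1 each near Rpl13a and Sdha. The sample was whole posterior tissue, so which cell type a region was open in cannot be told from these lists, and fewer cells of a type and less open chromatin per cell cannot be told apart.

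The genes nearest to most single-pair regions were headed by Gse1, which encodes a component of a histone-modifying corepressor complex, with 11 of 65 distal regions, all 11 in introns. Bcor, a transcriptional corepressor gene on the X chromosome, had 7 of 30, and Smad7 had 7 of 26. Med13l, a gene of the Mediator kinase module, had 6 of 26, all intergenic and between 82.1 and 445 kb from its TSS. Genes with 5 were Cd244a, Lmx1b, Rapgef5, Sept9, Sulf2 and Tns3. Sulf2 encodes a sulfatase that trims heparan sulfate outside the cell, and its 5 were among 20 distal regions. Genes with many distal regions nearby can head such an order, and the share of their distal regions ran from 11.1% at Lmx1b to 31.2% at Cd244a.

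The best ranked single-pair regions of WT replicate 1 and Shh-/- replicate 2 were mostly GC-rich. Of the 10 whose worse rank was best, 8 had a GC content of at least 64.5% and 5 held a GC box. The first, chr9:72132771-72133664, was intergenic and 21.3 kb upstream of Tcf12, which encodes a basic helix-loop-helix factor. It was called at rank 4801 in WT replicate 1 (score 241) and rank 3121 in Shh-/- replicate 2 (score 253), with a GC content of 74.0% and the nearest summits of WT replicate 2 and Shh-/- replicate 1 at 237 and 507 kb. Near Junb, an AP-1 gene, a region 2.21 kb from the TSS had scores of 264 and 241. Near Cbx8, a Polycomb gene, an intergenic region had scores of 369 and 241. The others lay near Cd52, Ptprn2, Rab11fip4, Socs3, Btg2, Cdk6 and Haao, and of these the regions of Ptprn2 (55%) and Cdk6 (48%) were the less GC-rich. Socs3, Btg2 and Junb are known as early response genes.

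Regions of the other pairs were weaker or lay in repeats. The best of WT replicate 1 and Shh-/- replicate 1 after Meis1 was intergenic near Tmprss15, at scores of 158 and 109 with summits 1 bp apart, followed by regions near Qdpr, Aga and Kbtbd11. In the 47 regions of WT replicate 2 and Shh-/- replicate 2, 19.1% had a summit window mostly made of soft-masked repeat, against 1.76% in the most frequent pair. The best of them lay in Mrgpra3, in a window masked over 100% of its length, and the next lay near Tmem121, Vmn1r3, Zfp982 and Lep. The 4 regions of WT replicate 2 and Shh-/- replicate 1 lay near Rab10, Gm21119, Tacc2 and Gm6356. The region nearest to Rab10, chr12:3109885-3110087, was intergenic, had rank 19 in WT replicate 2 (score 4145) and rank 29 in Shh-/- replicate 1 (score 1445), and was repeat over its whole window. Its ranks were better than those of any other single-pair region, and the nearest summits of WT replicate 1 and Shh-/- replicate 2, the longest lists, were both 126 kb away.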

How the data were processed

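ATAC-seq peaks of 2 WT and 2 Shh-/- libraries were analysed. The authors called peaks per library with MACS2 (q-value cutoff 0.05, 200 bp window) on mm10, and the submitters' processing notes list Bowtie2 2.2.5 and MACS2 2.1.0. Read filters and any Tn5 shift are not given in the sources used here. The score deposited by the authors with each peak was used to rank peaks within a list; by the caller's format it is 10 times the −log10 q-value, which the files do not state. The study states a nominal sequencing depth for its ATAC-seq libraries, but the deposited lists hold no reads per library, so no depth per sample is given. Libraries were grouped by their titles. Peaks were merged, annotated with GENCODE M21 basic and read against GRCm38.p6 in Python 3.11.15 with numpy 2.4.6. The regions, gene lists and motifs were chosen with earlier results of these data known. Named genes were the 3 of each list with most single-pair regions within 100 kb (genes with none left out, and for the endothelial list all 5 tied genes), the best ranked regions of each library pair, the 10 genes nearest to most regions, and Shh, Lmbr1, Gli1, Gli2, Gli3, Ptch1, Hhip, Grem1, Fmn1 and Hand2. Shares have 95% Wilson intervals, which cover counting error only. No test was run, since the calls chose the regions and regions are not replicates. Merging, distances and motif search were tested on simulated data.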

Additional observations from a re-analysis of the deposited data

How the results depend on the processing

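No paired analysis was possible because the results come from no test. At equal list size (the best 5589 peaks of each), the number of single-pair regions was 157 and the most frequent pair, then WT replicate 1 and Shh-/- replicate 1, held 51.6% of them. Their median GC content was 54.5%, summits lay within 100 bp in 61.8%, and 6.67% of distal regions near limb genes were single-pair, against 6.61% of all distal regions. With a score of at least 50 the number was 1129, the median distance to a protein-coding TSS 34.1 kb, the median GC content 54.5%, the share with close summits 61.1% and the share near limb genes 21.4%, against 16.7% of all distal regions. Joining peaks only where summits lay within 150 bp gave 84.1% from the most frequent pair. The share near limb genes was then 7.89%, against 6.11% of all distal regions. Summits were close in 78.1%, which follows in part from this way of joining. Leaving out regions within 5 kb of a TSS gave a median distance of 44.2 kb and a median GC content of 52.5%. To the TSS of any gene the median distance was 14.2 kb.

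Leaving out each library in turn gave 636 (without WT replicate 1) to 2771 (without Shh-/- replicate 1) single-pair regions, of which 51 and 2038 overlapped the 2189. These overlaps were fixed by the rule, as the numbers of single-pair regions called in WT replicate 2 and in Shh-/- replicate 2. With a library left out fewer library pairs are possible, and regions called in both libraries of that genotype can enter. The values are therefore not alike with those of the 4-library rule. The share of the most frequent pair ran from 93.2 to 99.2%, the median distance from 17.0 to 63.9 kb, the median GC content from 47.5 to 59%, the share with close summits from 47.8 to 58.2% and the share near limb genes from 5.68 to 15.4%. Without Shh-/- replicate 2 the number was 877, the median distance 63.9 kb and the share near limb genes 5.68%, against 3.54% of all distal regions. Without WT replicate 1 the median distance was 17.0 kb and the share near limb genes 7.35%, against 6.84%. The cause of these changes was not tested. Of 51 alternative values, 15 stayed within the interval of the value reported or within 1.5 times the number of regions. Over the whole region in place of 200 bp, every one of the 16 motifs was more frequent in single-pair regions than over all distal regions, which are narrower, so the lower shares of 6 motifs at the summit, the MEIS/TGIF core among them, reversed. Peak lists without read counts limit every statement to calls, and a missing call may be a matter of depth, which the lists do not give per library.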
